A study of Mus musculus with 15 samples.

Results

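The genes described here are 8 synaptic organizers of the C1q-like and cerebellin systems, taken by symbol from the 25080 genes listed for each thalamus library. They comprise the secreted ligands C1ql1, C1ql2, C1ql3, Cbln1, Cbln2 and Cbln4 and the postsynaptic receptors Adgrb3 (also called Bai3) and Grid1 (which encodes GluD1). All 8 were among the 13471 genes that passed a filter on low values, at least 1 TPM in at least 3 libraries. TPM, a relative transcript abundance already divided by transcript length, is the deposited unit, so that levels of different genes can be set side by side.

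RNA depleted of ribosomal RNA was sequenced from whole dissected thalamus of mice 2 to 4 months old. Maged1-cKO mice carried a floxed Maged1 allele together with Cre under the vGluT2 promoter, so the deletion was directed to glutamatergic neurons of this class and not to glia or other neurons of the tissue. Control mice are called Maged1 WT in the titles, whereas genotype tags and the study's methods name a loxP allele, so the sources differ on the allele the controls carried. All mice received saline for 3 days, and then either cocaine at 20 mg/kg or saline, intraperitoneally, for 5 days. Labels gave 4 libraries each to control saline, control cocaine and cKO saline and 2 to cKO cocaine, 14 in all, and 1 more sample with the last label was not analysed here. The labels do not say whether libraries came from single or pooled mice, so p-values measure the spread between these libraries. TPM keeps no read depth, so the counting error behind each value is unknown.

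C1q-like proteins and cerebellins are released from presynaptic terminals, and each belongs to the family of proteins that share the globular domain of complement C1q. C1q-like proteins bind the adhesion receptor BAI3 and, at some synapses, neurexins and kainate receptors, whereas cerebellins bridge presynaptic neurexins and postsynaptic delta receptors such as GluD1. These bridges set the number and the position of synapses, and thalamic neurons are a known source of cerebellins for the striatum.

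Several labels and libraries bear on the results. Maged1, on scaled TPM (defined below), had a range of 149.7 to 166.3 over control saline and 64.5 to 78.0 over cKO saline. The 4 libraries labelled control cocaine had 58.5 to 87.9, whereas the 2 labelled cKO cocaine had 152.5 and 174.0. After cocaine the targeted gene therefore went against the genotype labels, and the cocaine libraries are named by their labels throughout. For 4 saline libraries the genotype tag named the other genotype than the title, and the titles were used. Maged1 went with the titles in these libraries. It was at 149.7 and 150.9 in control saline replicates 3 and 4, and at 78.0 and 76.6 in cKO saline replicates 1 and 2. A fit by the tags therefore mixes libraries with high and low Maged1 within each saline group. The defining thalamic markers were present in every library, with Tcf7l2 at 74.0 to 125.0 and Slc17a6, which encodes Vglut2, at 68.9 to 104.0 scaled TPM. A list of 7 habenula markers summed to 183.9 in control cocaine replicate 1 and to 11.1 to 81.8 in the other 13 libraries. A list of 8 cortex and hippocampus markers summed to 110.8 in cKO saline replicate 4 and to 48.6 to 97.7 elsewhere, and 6 choroid plexus markers summed to 1450.0 in control saline replicate 1 and to at most 57.1 elsewhere. A list of 10 hypothalamus markers summed to 36.4 and 76.5 in cKO cocaine and 12.45 to 150.3 in cKO saline. It summed to 4.69 to 130.6 in control cocaine, below the 135.5 to 466.0 of control saline. In bulk tissue, fewer cells of a type and less RNA per cell cannot be told apart.

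Scaled TPM are the deposited values divided by 1 trimmed-mean factor per library. In control saline the order of levels was led by Cbln1, at 29.4 ± 3.56 scaled TPM (SD, n = 4), whose libraries all lay above those of Cbln2 at 24.0 ± 1.67. Grid1 followed below all Cbln2 libraries at 18.0 ± 0.67, then Cbln4 at 16.5 ± 2.11, Adgrb3 at 15.9 ± 0.448 and C1ql3 at 15.8 ± 3.13, and neighbours among these 4 overlapped. C1ql1 at 5.12 ± 1.79 and C1ql2 at 4.66 ± 0.402 were lowest and overlapped with each other. Cbln1 and Cbln2 thus stood above the other members in this group, and C1ql3 overlapped Adgrb3 while C1ql1 and C1ql2 lay below both receptors.

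**Figure D1:**
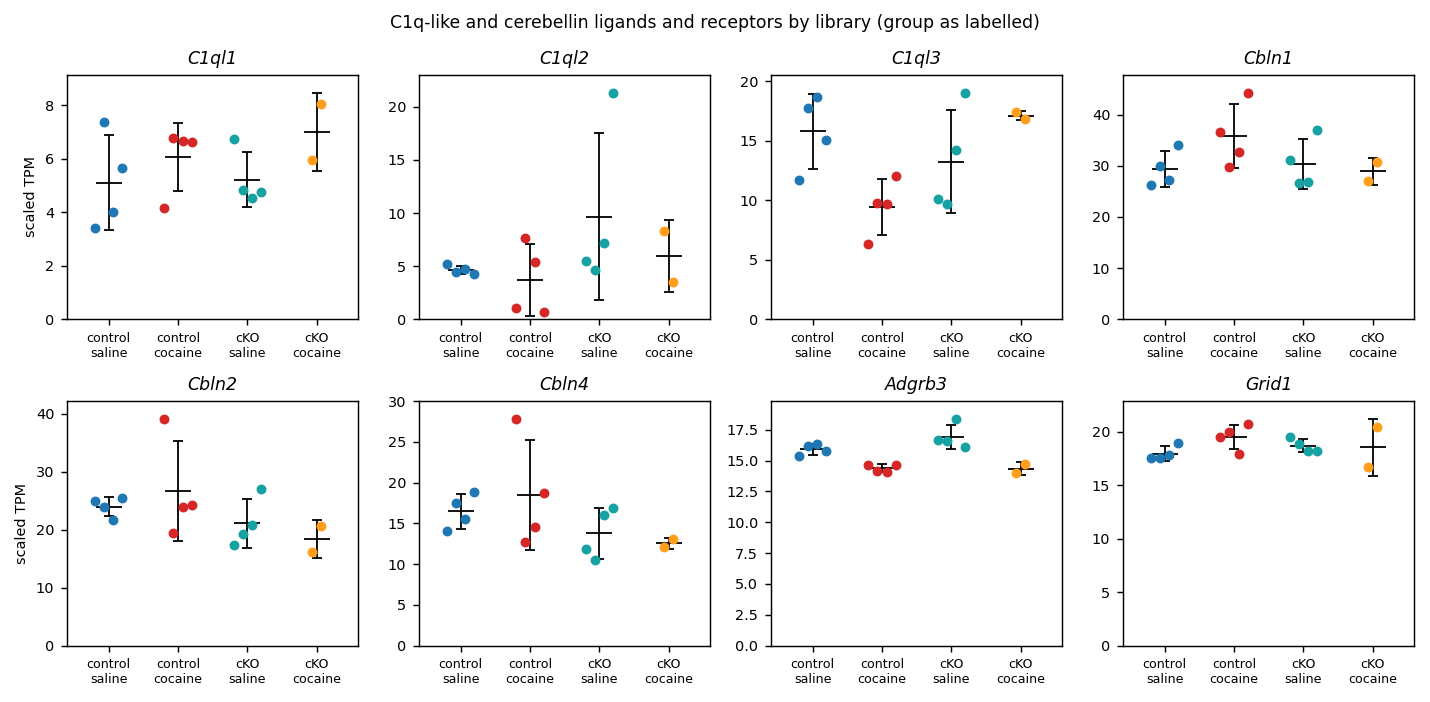
Scaled TPM of the 8 genes (y axes, each starting at 0) in every library by labelled group (x axis). Points are libraries and bars are the mean ± SD. All 6 cocaine libraries lie below all 8 saline libraries for Adgrb3 and for no other member, and single libraries stand high for C1ql2, at 21.3, and for Cbln2, at 39.1.

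The first comparison set the libraries labelled control cocaine against control saline. Maged1 itself had a log2 difference of -1.08 there (adjusted p = 5.91e-05, limma). Among the libraries labelled cKO its difference with cocaine was 1.18 (adjusted p = 0.000242, limma). Neither comparison therefore isolates cocaine. Of the 8 members 1 was called in the first comparison, and it was lower. A call needed an adjusted p under 0.05 together with a log2 change of 0.5 or more in size, and 3.1% of all tested genes were called in this comparison, in either direction. At the adjusted p alone 2 members, C1ql3 and Adgrb3, were lower, against 9.35% of all genes. The median log2 fold change was 0.11 over the members and 0.01 over all tested genes. Among the libraries labelled cKO, no member was called between cocaine and saline, where 3.07% of all genes were called, and Adgrb3 alone passed the adjusted p, where 10.7% of all genes passed it as lower. These comparisons used limma with Benjamini-Hochberg adjustment over all tested genes.

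Sums of markers of other cell types did not overlap between the treatments in 3 of 14 lists among the control libraries and in 5 among the cKO libraries. With labels given at random, a list would separate with probability 0.0286 for 4 against 4 libraries and 0.133 for 2 against 4. The cKO count therefore carries little weight, and some of its gaps were narrow. In control, the cortex and hippocampus sum was 50.65 to 66.4 after saline and 69.6 to 97.7 after cocaine, and the sum of 6 oligodendrocyte precursor markers was 62.6 to 70.6 and 71.7 to 98.2. The hypothalamus sums given above were the other list. Among the cKO libraries the cortex and hippocampus sum went the other way, from 69.04 to 110.8 after saline to 48.6 and 68.7 after cocaine. Endothelial and mural markers were also lower after cocaine, at 35.3 and 37.4 against 40.6 to 46.1, as were astrocyte markers, at 352.7 and 356.1 against 356.7 to 408.5. Cerebellar granule cell markers were higher, at 39.4 and 40.5 against 26.7 to 36.8, and so were ependymal markers, at 20.6 and 26.9 against 4.27 to 14.75. The part of these cells in the differences within a genotype label, listed organizers included, was not tested.

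C1ql3, a secreted ligand of BAI3 that some projection neurons release at their synapses, lies on the minus strand of chromosome 2, chr2:13003457-13011806 (GRCm38, GENCODE M21), in 2 exons. It was at 11.7, 17.8, 18.7 and 15.0 scaled TPM in control saline and at 6.35, 9.75, 9.66 and 12.1 in the libraries labelled control cocaine. The highest of these cocaine libraries lay just above the lowest saline library, so the groups overlapped in a single pair. The cKO saline values were 10.1, 9.72, 14.2 and 19.0, whereas the 2 libraries labelled cKO cocaine had 17.4 and 16.8. Both of the latter were above all 4 labelled control cocaine, and inside the range of both saline groups. The log2 fold change with cocaine was -0.72 (standard error 0.22, adjusted p = 0.0321, limma) in control and 0.41 (standard error 0.27, adjusted p = 0.318, limma) in cKO. Both values rest on genotype labels that Maged1 went against after cocaine. C1ql3 averaged 15.8 and 17.1 in the groups with high Maged1, control saline and labelled cKO cocaine, and 13.25 and 9.45 in those with low Maged1. If those labels were exchanged, -0.72 would not be a cocaine effect in control, nor 0.41 one in cKO. The study itself singled out C1ql3, for lower RNA together with more monoubiquitinated histone H2A at its promoter after cocaine. The promoter mark came from separate chromatin data, but the RNA came from these libraries, so the fall is not independent evidence. The exact two-sided permutation test gave p = 0.0571, and the smallest p for groups of 4 is 0.0286. The 3 marker lists named above separated the same 2 groups. The limma call was lost without any 1 of control cocaine replicates 1, 2 or 3 or control saline replicates 2, 3 or 4, with adjusted p up to 0.0863, and also with no filter on low values (0.052), with the genotype tags (-0.36, 0.237) and in the libraries whose labels agree (-0.61, 0.138).

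The difference of the cocaine effect between the labelled genotypes was 1.13 for C1ql3 (standard error 0.35, 95% confidence interval 0.37 to 1.89, adjusted p = 0.106, limma) and was not called, nor was any other member. The share of all genes called for this interaction was 0.854%. Maged1 itself had an interaction of 2.26, so this contrast sets the groups with high Maged1 against those with low Maged1. Without control cocaine replicate 1, cKO saline replicate 4 and control saline replicate 1, the 3 libraries high in markers of other tissue, the interaction for C1ql3 was 1.28 with adjusted p = 0.0261, and its cKO difference was 0.59 with adjusted p = 0.0275 (limma), so both were then called. The control difference was -0.70 with adjusted p = 0.00753 (limma) in the same fit and stayed called. This removal was chosen after the values were seen. Between the libraries labelled cKO and control after cocaine, C1ql3 differed by 0.86 (adjusted p = 0.28, limma), and no member was called against 0.0371% of all genes. The genotypes after saline differed by -0.27 for C1ql3 (adjusted p = 0.572, limma), and again no member was called, against 0.0445% of all genes.

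C1ql1, the ligand that climbing fibres use to engage BAI3 in the cerebellum, lies at chr11:102939264-102946688 on the minus strand. It ranged from 3.41 to 8.05 scaled TPM over the 14 libraries, and every pair of groups overlapped. Its difference with cocaine was 0.26 under the control label (95% confidence interval -0.21 to 0.72) and 0.39 under the cKO label (-0.18 to 0.96), and neither was called.

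C1ql2, which acts with C1ql3 at hippocampal mossy fibre synapses, lies at chr1:120340582-120343174 on the plus strand and varied most among the members. It was at 5.2, 4.42, 4.72 and 4.29 scaled TPM in control saline, and at 1.05, 7.67, 5.41 and 0.679 in the libraries labelled control cocaine. Control cocaine replicates 1 and 4 lay below every saline library and replicates 2 and 3 above every control saline library. The cKO saline libraries had 5.46, 4.67, 7.21 and 21.3, and the 2 cKO cocaine libraries 8.32 and 3.56. The highest value was in cKO saline replicate 4, the library with the highest cortex and hippocampus sum. There Neurod2, a factor of forebrain excitatory neurons, was at 8.42 scaled TPM, against at most 1.35 in any other library, and Emx1 was at 1.37, against at most 0.0781. The part of these tissues in the C1ql2 value was not tested. Control cocaine replicate 1, with the second highest sum of this list, had a C1ql2 level of 1.05. Most of its sum of 97.65 was Slc17a7 at 82.2 scaled TPM, with Emx1 at 0 and Tbr1 at 0.184. The spread leaves the group comparisons wide. Labelled control cocaine differed from control saline by -0.75 (95% confidence interval -2.04 to 0.54, adjusted p = 0.388, limma). The saline genotype difference was 0.72 (-0.57 to 2.01, adjusted p = 0.58, limma). Without cKO saline replicate 4 the saline difference was 0.27. The control difference was -0.42 without control cocaine replicate 1, -1.22 without replicate 2 and -0.29 without replicate 4.

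Cbln1, the cerebellin of parallel fibre synapses in the cerebellum, lies at chr8:87468405-87472609 on the minus strand. It was at 26.2, 29.9, 27.2 and 34.1 scaled TPM in control saline and at 36.5, 29.8, 32.6 and 44.3 in the libraries labelled control cocaine, with overlap at the low end of the cocaine libraries. The difference was 0.27 (standard error 0.13, adjusted p = 0.147, limma). Among the cKO libraries it was -0.06 (95% confidence interval -0.41 to 0.28).

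Cbln2, a cerebellin of the forebrain, and Cbln4, a cerebellin that also binds the netrin receptors DCC and neogenin, varied together across libraries. Cbln2 was at 39.1 scaled TPM in control cocaine replicate 1 and at 19.4, 23.9 and 24.3 in replicates 2 to 4, against 24.9, 24.0, 21.6 and 25.4 in control saline. Cbln4 was at 27.8 in that same replicate and at 12.8, 14.5 and 18.7 in the others, against 14.04, 17.5, 15.5 and 18.8 in control saline. This library had the highest level of both genes and also the highest habenula sum, and it had the lowest sum of 6 GABA neuron markers, 34.9 against 87.1 to 309.8 elsewhere. At the low end of the habenula sum the levels varied. Control cocaine replicate 4, at 11.06, had Cbln2 at 24.3 and Cbln4 at 18.7, and cKO saline replicate 1, at 11.07, had 17.4 and 11.9. The part of habenula tissue in these values was not tested. In cKO saline Cbln2 was at 17.4, 19.2, 20.8 and 27.1 and Cbln4 at 11.9, 10.5, 16.0 and 16.9. The libraries labelled cKO cocaine had Cbln2 at 16.1 and 20.7 and Cbln4 at 12.1 and 13.1, within or just below the cKO saline range. The control cocaine difference was 0.11 for each gene, with 95% confidence intervals of -0.29 to 0.50 for Cbln2 and -0.35 to 0.56 for Cbln4. Without control cocaine replicate 1 these were -0.09 and -0.11, so that 1 library set their sign.

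**Figure D2:**
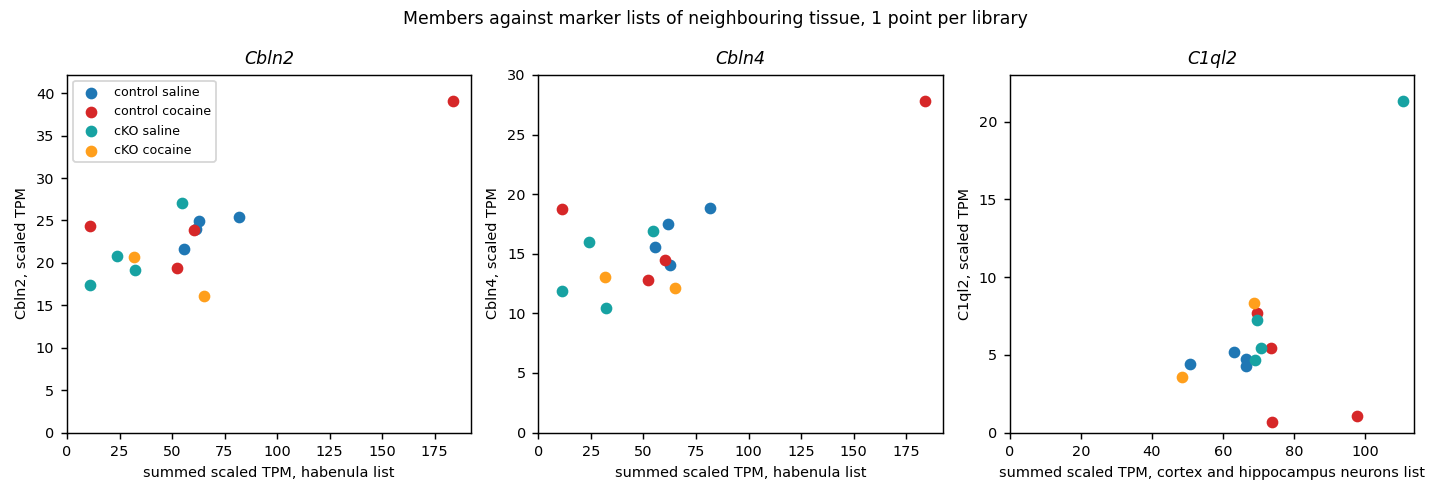
Scaled TPM of Cbln2 and Cbln4 (y axes) against the summed scaled TPM of 7 habenula markers (x axes), and of C1ql2 against the sum of 8 cortex and hippocampus markers, with 1 point per library coloured by labelled group. Control cocaine replicate 1 stands at a habenula sum of 183.9 with the highest Cbln2 and Cbln4, and cKO saline replicate 4 at a cortex and hippocampus sum of 110.8 with the highest C1ql2.

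Deviations of log2 scaled TPM from the group means measured how the members varied within groups. Over the 14 libraries Cbln2 and Cbln4 had a Pearson correlation of 0.85, the highest among the 28 pairs of members, and 0.69 over 13 libraries without control cocaine replicate 1. By this measure Cbln4 was the 35th gene in likeness to Cbln2. Cbln1 followed Cbln4 with 0.58 and Cbln2 with 0.48. Between ligands and receptors the values were mixed. They were 0.43 for Cbln1 and Grid1 but 0.07 for Cbln2 and Grid1 and 0.08 for Cbln4 and Grid1. With Adgrb3 they were 0.12 for C1ql3, 0.03 for C1ql1 and -0.48 for C1ql2. These are descriptions, and the points share the TPM scale and the library factors. The genes most like each member were Lonp2, Mast2 and Wbp2 for C1ql1 (0.91 to 0.9), B330016D10Rik, Aldh1b1 and Scn7a for C1ql2 (0.91 to 0.88), and Mctp1, Lemd1 and Crtc1 for C1ql3 (0.94 to 0.87). For the cerebellins they were Tor2a, Ahdc1 and Stxbp6 for Cbln1 (0.95 to 0.9), Cdh8, Sox12 and Nrn1 for Cbln2 (0.94 to 0.91), and Glce, Rhpn2 and Zfp160 for Cbln4 (0.96 to 0.93). The receptors had Zcchc18, Mc3r and Xpot for Adgrb3 (0.95 to 0.9) and Mir9-3hg, Tmem204 and Rpl38 for Grid1 (0.95 to 0.9). Each is among the top 3 of 13471 genes over 14 libraries.

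Adgrb3, the adhesion receptor through which C1q-like proteins act on dendrites, was the member that separated cocaine from saline in every library. It spans 762232 bases of the minus strand of chromosome 1, chr1:25067476-25829707. In control saline it was at 15.3, 16.2, 16.3 and 15.7 scaled TPM and in cKO saline at 16.7, 16.5, 18.4 and 16.1. The libraries labelled control cocaine had 14.7, 14.2, 14.1 and 14.7, and those labelled cKO cocaine 13.99 and 14.7. All 6 cocaine libraries were thus below all 8 saline libraries, whatever genotype they were given. The log2 fold change was -0.18 over both genotypes (standard error 0.034, adjusted p = 0.00134, limma), -0.14 in control (standard error 0.043, adjusted p = 0.0328, limma) and -0.23 in cKO (standard error 0.052, adjusted p = 0.00963, limma). The change was small, under the fold minimum in each comparison, so Adgrb3 was not called. No member was called over both genotypes, against 2.07% of all genes, while 15.3% of all genes passed the adjusted p as lower in that comparison. The exact two-sided permutation test of 6 against 8 libraries gave p = 0.000666, the smallest it can give. Groups without overlap and lower in cocaine were found for 4.87% of all genes over both genotypes, and for 10.3% in control, where Adgrb3 was also the only such member.

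The fall of Adgrb3 over both genotypes stayed between -0.20 and -0.16 with each library left out, with adjusted p at most 0.00939 (limma). Within a genotype the adjusted p (limma) rose to at most 0.086 in control when 1 of control cocaine replicates 2 or 3 or control saline replicates 2, 3 or 4 was left out, and to 0.0797 in cKO without cKO cocaine replicate 1. In the libraries whose labels agree it was 0.26 in control and 0.0793 in cKO. The library scaling factors also separated the treatments, at 0.807 to 0.947 in the 6 cocaine and 1.07 to 1.21 in the 8 saline libraries. With TPM as deposited, where all genes moved by a median of -0.34 (log2), Adgrb3 differed by -0.55 over both genotypes and was called. The difference of Adgrb3 with cocaine did not differ detectably between the labelled genotypes (interaction -0.09, 95% confidence interval -0.24 to 0.06). Maged1 went against these labels after cocaine, so this contrast cannot be read as an effect of genotype.

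Grid1, which encodes the delta receptor GluD1 that cerebellins bind, spans 763272 bases of the plus strand of chromosome 14, chr14:34820108-35583379. It was at 17.5, 17.6, 17.8 and 19.0 scaled TPM in control saline and at 19.5, 20.0, 18.0 and 20.7 in control cocaine. The cKO libraries had 19.5, 18.9, 18.2 and 18.2 after saline and 16.7 and 20.4 after cocaine. These groups overlapped throughout. Over both genotypes its difference was 0.05 (95% confidence interval -0.06 to 0.15), and the difference between Adgrb3 and Grid1 was not tested. The sign turned under TPM as deposited, at -0.32, close to the shift of all genes.

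**Figure D3:**
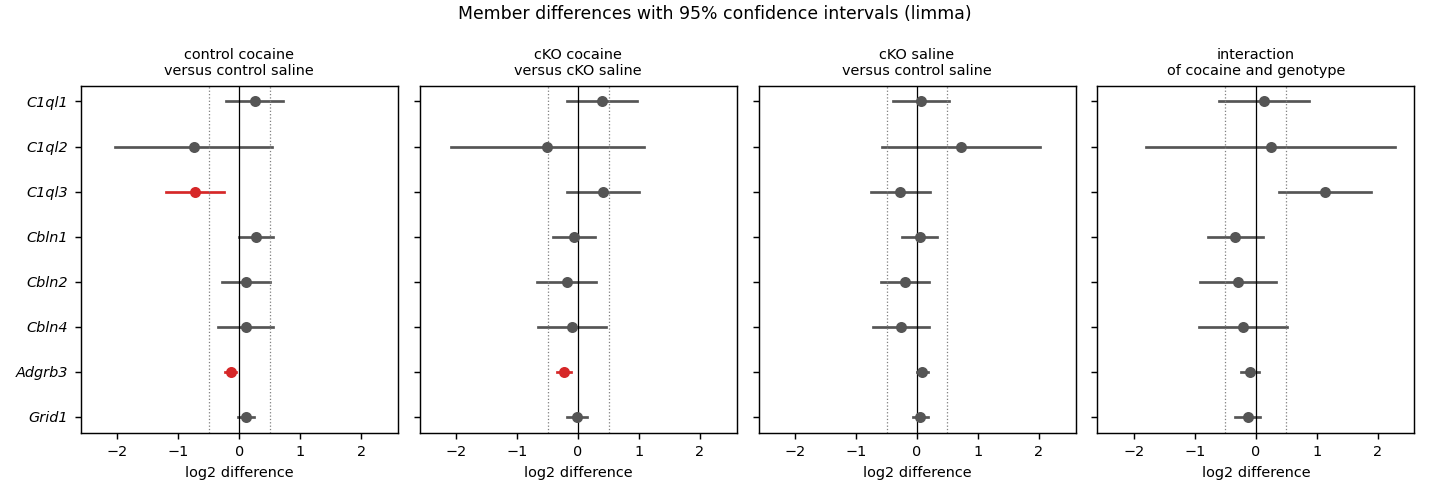
Log2 differences of the 8 members (points) with 95% confidence intervals (lines) in 4 comparisons, with dotted lines at the fold minimum of 0.5 in each direction and red for an adjusted p under 0.05. C1ql3 and Adgrb3 are red in control, Adgrb3 alone in cKO, and the C1ql3 interaction of 1.13 is not red although its own interval leaves out 0.

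Sequence upstream of the start was found for 4 of the 7 members looked up in RefSeq promoter windows (GRCm38.p6), namely C1ql2, C1ql3, Cbln4 and Adgrb3. Adgrb3, the member lower in all cocaine libraries, and Cbln4, which varied with Cbln2, are shown as the 250 bases before the start, 5′ to 3′ on the minus strand, chr1:25829708-25829957 for Adgrb3 and chr2:172043467-172043716 for Cbln4. Capitals mark the GC box GGGCGG and the CCAAT box CCAAT on either strand.
Adgrb3: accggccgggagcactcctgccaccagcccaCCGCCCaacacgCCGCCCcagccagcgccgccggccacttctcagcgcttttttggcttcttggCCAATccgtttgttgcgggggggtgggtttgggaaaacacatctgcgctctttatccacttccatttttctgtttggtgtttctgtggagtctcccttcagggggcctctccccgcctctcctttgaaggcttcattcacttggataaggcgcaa
Cbln4: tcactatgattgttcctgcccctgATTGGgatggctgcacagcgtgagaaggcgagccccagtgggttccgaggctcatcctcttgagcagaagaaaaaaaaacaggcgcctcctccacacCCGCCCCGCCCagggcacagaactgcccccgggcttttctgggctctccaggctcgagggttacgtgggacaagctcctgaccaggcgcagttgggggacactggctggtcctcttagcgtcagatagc
Both stretches held 2 GC boxes and 1 CCAAT box. Over 32817 promoter windows of 300 bases, each reaching from 250 bases before to 50 after the start, 35.6% held a GC box and 37.4% a CCAAT box. The windows of all 4 members held a GC box, and none held the TATA box TATAAA (13.6% of windows), the cAMP response element TGACGTCA (1.79%) or the E-box CACGTG (7.15%). The shorter TGACG, which lies within the cAMP response element, occurred once, in Cbln4, and in 20.8% of all windows. The 4 windows were 59.0% to 67.3% G and C. These matches are letters in a window and not sites shown to be used.

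Among 12 binding partners and close paralogs, 11 passed the filter and none was called in any comparison. Of the neurexins, the presynaptic anchors of cerebellins, Nrxn2 ranged from 49.9 to 63.9 scaled TPM over all libraries and Nrxn3 from 24.8 to 37.8. Of the receptors, Adgrb1 was at 52.2 to 82.2 and Adgrb2 at 15.3 to 28.0. The kainate receptor subunits Grik2 and Grik4 were at 5.55 to 8.03 and 4.32 to 5.44, and the netrin receptors Neo1 and Dcc at 13.8 to 16.7 and 2.34 to 3.94. The paralogs Cbln3, at 0.668 to 1.26, and C1ql4, at 0.125 to 1.51, were near the filter, and C1ql4 was below it. At the adjusted p alone, 2 of the 11 partners (18.2%) were higher over both genotypes after cocaine and 3 (27.3%) lower, beside 17.4% and 15.3% of all genes. Adgrb1 rose by 0.27 and Nrxn2 by 0.17, while, among the lower ones, Grik2 differed by -0.27 (adjusted p = 0.000981, limma) and Dcc by -0.22. The median over the 11 was -0.04, beside 0.01 over all tested genes.

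Of 43 other synaptic organizers, 1 was called with cocaine in control and 3 in cKO, beside the 3.1% and 3.07% of all genes given above. Lrrtm1, a postsynaptic neurexin ligand, was at 39.0, 29.4, 35.8 and 34.9 scaled TPM in control saline and at 53.5, 49.1, 46.9 and 58.9 in control cocaine, and rose by 0.58 (standard error 0.089, adjusted p = 0.000899, limma). This call was lost with TPM as deposited (0.20, adjusted p = 0.0653, limma), and under the tags the change of 0.45 was below the fold minimum. Nptxr, the pentraxin receptor that gathers AMPA receptors, was at 28.7, 30.8, 55.6 and 43.1 in cKO saline and at 87.3 and 101.6 in the 2 cKO cocaine libraries, and rose by 1.29 (standard error 0.24, adjusted p = 0.00353, limma). In control, Nptxr was at 52.7, 69.0, 81.1 and 62.4 after saline and at 53.4, 43.5, 48.1 and 65.1 after cocaine, with overlap (-0.33, adjusted p = 0.243, limma). Nptxr averaged 66.3 and 94.4 in the groups with high Maged1, control saline and labelled cKO cocaine. It averaged 52.5 and 39.55 in labelled control cocaine and cKO saline, where Maged1 was low. The rise, like the other calls of this list, rests on genotype labels that Maged1 went against after cocaine. Cadm2, an adhesion molecule of the SynCAM family, differed by -0.56 in cKO (adjusted p = 0.000674, limma), from 24.1, 22.7, 24.2 and 26.3 to 15.3 and 17.3. Il1rapl1, a postsynaptic partner of receptor tyrosine phosphatases, differed by -0.63 in cKO (adjusted p = 0.000483, limma), from 4.96, 4.9, 4.53 and 4.55 to 3.04 and 2.74. In control, saline and cocaine libraries averaged 19.3 and 20.1 for Cadm2 and 3.7 and 3.35 for Il1rapl1. Both genes were higher in cKO saline than in control saline. These differences were 0.33 for Cadm2 (adjusted p = 0.0645, limma) and 0.32 for Il1rapl1 (adjusted p = 0.0697, limma), and neither was called. With the genotype tags, which mix high and low Maged1 within each saline group, none of the 3 cKO calls held. Nptxr was then at 0.67 (adjusted p = 0.19, limma). Cadm2 at -0.46 (adjusted p = 0.0376, limma) and Il1rapl1 at -0.44 (adjusted p = 0.0473, limma) were lost on the fold minimum alone. Without cKO cocaine replicate 2 Nptxr had adjusted p = 0.0531 (limma), and without replicate 1 Cadm2 was at -0.48, under the fold minimum. Nptxr and Cadm2 were also called for the interaction, beside 0.854% of all genes. Il1rapl1 passed its adjusted p (0.043, limma) at -0.497, just under the fold minimum. At the adjusted p alone, 12 of the 43 (27.9%) were higher over both genotypes and 7 (16.3%) lower, beside 17.4% and 15.3% of all genes, and the median was 0.08.

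Adgrb3 and Grid1 have nearly the same span, and the comparison by span was chosen after the values were seen. Of the 23 members and listed organizers that span over 300 kb, 8 were lower over both genotypes at the adjusted p and 1 was higher. Of the 21 that span 10 to 100 kb 2 were lower and 12 higher. The 11 under 10 kb had 1 lower and 0 higher, and the 7 of 100 to 300 kb had 0 lower and 1 higher. The counts thus did not follow span in a steady order. Of all 491 tested genes over 300 kb, 15.1% were lower and 11.4% higher, and of the 7774 genes of 10 to 100 kb 17.2% were lower and 17.4% higher. Across genes, which are not independent replicates, the Spearman correlation of span and difference was -0.24 over the 62 members and organizers with a span and -0.08 over 13186 tested genes.

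**Figure D4:**
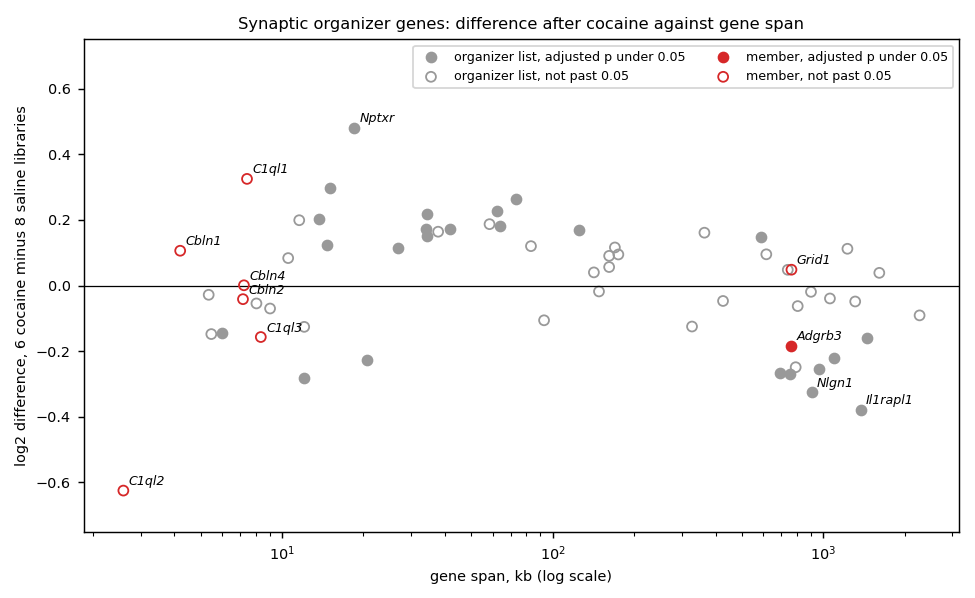
Log2 difference of 6 cocaine from 8 saline libraries (y axis) against gene span in kb (x axis, log scale) for members (red) and listed organizers (grey), filled where the adjusted p is under 0.05. Among genes over 300 kb, 8 filled points lie below 0, Adgrb3 among them, and 1 above, while Grid1 is open at 0.05.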

How the data were processed

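Thalamus RNA from 14 libraries was analysed. According to the paper's methods the authors mapped reads to GRCm38.p4 with STAR 2.5.3a and made TPM with salmon and tximport. The authors deposited 1 TPM value per gene symbol and library. In 2 deposited tables, whose unit is recorded as other, the TPM carry a decimal comma, read here as a decimal point. Groups follow the sample titles.

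Deposited TPM were divided by unweighted TMM factors that trimmed 30% of log ratios and 5% of means from either end. Tests ran on log2 of scaled TPM plus 0.5, a scale that understates changes of low genes. Genes reaching 1 TPM in 3 or more libraries were fitted with limma 3.58.1 (R 4.3.3), as a means model of 4 groups with an intensity trend. Single members were also put to two-sided permutation tests, exact in every case (scipy 1.17.1). Named genes are the members, binding partners (some are not reported here), organizers called in any comparison, the 3 tested genes most like each member, and Maged1. Members and lists were chosen with earlier results of these data known. Alternatives were other scalings, pseudocounts of 0.1 and 1, no filter, compared groups alone, no trend, a replicate block, genotype tags, agreeing labels, no fold minimum and leaving out libraries. The fit was tested on simulated data: of 13260 genes, 200 were shifted by log2 1 in control cocaine, and 187 of those were called, with 2 false calls. That shift was larger than the difference with cocaine of any member in the main fit, so it does not show how often such smaller changes are called. The simulated noise was independent between genes and held no tissue differences between groups. Spans come from GENCODE M21.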

Additional observations from a re-analysis of the deposited data

Results flagged for a closer look

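C1ql1 was flagged in 2 groups because a single library stood far from the others. It was lowest in control cocaine replicate 1, at 4.18 scaled TPM beside 6.62 to 6.8, and highest in cKO saline replicate 1, at 6.76 beside 4.56 to 4.83. The 8 members were looked at in 24 groups of 4 libraries, where chance gives about 1.2 such libraries.

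The effect of cocaine differed between the labelled genotypes for Maged1 by a log2 value of 2.26 (adjusted p = 6.76e-05, limma), as the levels above show. For Nptxr the difference was 1.62 (adjusted p = 0.0336, limma), and the adjusted p was up to 0.101 without any 1 of control cocaine replicate 3, control saline replicates 2, 3 or 4, cKO cocaine replicates 1 or 2, or cKO saline replicates 1 or 2. For Cadm2 it was -0.62 (adjusted p = 0.0156, limma), and 0.0899 was the adjusted p without cKO cocaine replicate 1. With the genotype tags the adjusted p was 0.882 for Nptxr and 0.775 for Cadm2.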

How the results depend on the processing

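With TPM as deposited the median of all genes moved by -0.34 on the log2 scale in control and over both genotypes and by -0.35 in cKO. Then 2 members were called in control (C1ql3 and Adgrb3), 2 in cKO (Cbln2 and Adgrb3) and 2 over both genotypes (C1ql3 and Adgrb3). The control differences turned to -0.092 for C1ql1, -0.10 for Cbln1, -0.27 for Cbln2, -0.27 for Cbln4 and -0.26 for Grid1, and those over both genotypes to -0.026 for C1ql1, -0.27 for Cbln1, -0.37 for Cbln4 and -0.32 for Grid1. The exact permutation test of C1ql3 then gave -1.09 with p = 0.0286. With median-of-ratios scaling Cbln4 was -0.0083 over both genotypes. With no filter 0 members were called in control (C1ql3 at adjusted p = 0.052, limma), as with the genotype tags (0) and the agreeing labels (0), where the cause was not tested. The tags turned Grid1 in cKO to 0.011 and C1ql3 between saline genotypes to 0.46, and the agreeing labels turned these to 0.020 and 0.18, the C1ql2 interaction to -0.33 and Cbln4 over both genotypes to -0.10. With no fold minimum 2 members were called in control, 1 in cKO and 1 over both genotypes.

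Without the 3 libraries high in other markers, an alternative chosen after seeing the data, 1 member was called in cKO and 1 for the interaction, C1ql3 each time. Cbln2 and Cbln4 in control were then -0.085 and -0.19, Cbln1 in cKO 0.028 and Cbln4 over both genotypes -0.099. Leaving out 1 library at a time gave 0 to 1 members called in control. Signs turned in control for Cbln2 (-0.092 to 0.24) and Cbln4 (-0.11 to 0.26), and in cKO for C1ql2 (-1.06 to 0.057), Cbln1 (-0.15 to 0.035), Cbln4 (-0.22 to 8.88e-06) and Grid1 (-0.16 to 0.12). They also turned for the C1ql2 interaction (-0.32 to 0.81) and, over both genotypes, for Cbln2 (-0.14 to 0.047), Cbln4 (-0.11 to 0.076) and Grid1 (-0.023 to 0.12).

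Replicate numbers did not pair the libraries, since same-numbered libraries had a mean correlation of -0.014 over 18 pairs of libraries and the others 0.0046 over 54. A replicate block turned Cbln1 in cKO to 0.012 and left C1ql3 called in control (-0.72, adjusted p = 0.0124, limma), with Adgrb3 there at adjusted p = 0.0546. Adgrb3 over both genotypes was lower in all 25 alternatives, with adjusted p (limma) at most 0.0318. The depth behind TPM is unknown, so small differences of C1ql1 and C1ql2 cannot be set against counting error.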
